A study of Mus musculus with 21 samples.

Results

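Transcripts of respiratory complex I were examined in primary cortical neurons from newborn mice through 46 genes, of 19399 genes listed in all 4 deposited tables. They were chosen by symbol (Nduf followed by a, b, c, s, v, ab or af and a number), and all 46 were in every table. Of these, 38 encode subunits and 8 are named as assembly factors (Ndufaf1 to Ndufaf8). Ndufa4 is kept because the symbol rule takes it, although the protein is now regarded as a subunit of complex IV. Ndufab1 encodes the mitochondrial acyl carrier protein, which also serves fatty acid synthesis.

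Polyadenylated RNA had been sequenced from 21 cultures, of which 5 were Tau neurons with DMSO, 5 Tau neurons with AdipoRon, 5 WT neurons with DMSO and 6 WT neurons with AdipoRon. Tau neurons are Tg (hTau P301S) cells, which express mutant human tau from a prion promoter, and were seeded on day 7 with 3 μg/mL of pre-formed tau fibrils and kept for 18 more days. The labels describe seeding for the transgenic cultures, and the sources differ on whether wildtype (WT) cultures were seeded too. If they were not, transgene and fibrils cannot be told apart in a difference between Tau and WT neurons. AdipoRon, a small molecule that activates the adiponectin receptors, or its vehicle DMSO was given for 24 h, at 10 μM in the sample tags, whereas the protocol text deposited with them writes mM. All cultures had received 1 μM AraC, which kills dividing glia.

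Complex I passes electrons from NADH to ubiquinone and pumps protons across the inner mitochondrial membrane. Its matrix arm holds the flavin and the iron-sulfur clusters, its membrane arm holds the proton channels, and the mitochondrial genome encodes the central membrane proteins. Assembly factors help to build the complex and are not part of the finished enzyme. Neurons draw heavily on oxidative phosphorylation, which complex I feeds. The 7 mitochondrial genes of the complex (mt-Nd1 to mt-Nd6 and mt-Nd4l) were not analysed here.

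Each table gives, for every gene, 1 mean level over both of its groups of cultures, in log2 CPM (the base-2 logarithm of read counts scaled to a common library total). The 4 tables thus give a mean over all 10 Tau cultures, over all 11 WT cultures, over all 11 AdipoRon cultures and over all 10 DMSO cultures, called pools below. The Tau and WT pools share no culture, nor do the AdipoRon and DMSO pools, but each culture is in a pool of either kind. The AdipoRon and DMSO pools each mix Tau and WT cultures, and the Tau and WT pools each mix AdipoRon and DMSO cultures. A response to AdipoRon that differs between Tau and WT neurons can therefore not be seen. The study's reporting summary says that an animal gave samples to each treatment, so by that account the AdipoRon and DMSO pools share animals, and the Tau and WT pools each come from fewer animals than cultures. Values per culture and depths were not used here, so the pooled levels have no error, no difference between pools could be tested, and a difference is a description of these cultures only. Since the tables may have been normalized separately, the median difference of all genes was subtracted from each difference (-8.1e-04 between the Tau and WT pools and 0.03 between the AdipoRon and DMSO pools). In bulk RNA, fewer cells of a type and less RNA per cell cannot be told apart.

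Neuron markers were present, with the sum of 8 markers at a log2 CPM of 11.9 to 12.1 in the 4 pools. Astrocyte markers were nearly as high, with the sum of Gfap, Aqp4, Aldh1l1 and Slc1a3 at 11.7 to 11.8. Of the vascular markers, 3 of 4 were in the tables, summed at 5.42 to 5.50. The microglia markers Aif1, Cx3cr1, P2ry12 and Csf1r summed to 5.53 in the Tau pool and 6.50 in the WT pool. The oligodendrocyte markers Mbp, Mog and Mag summed to 8.02 in the Tau pool and 8.47 in the WT pool.

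To compare levels between genes, each was divided by the length of its coding sequence. On this scale (log2 CPM per kb of coding sequence, mean of the 4 pools), the median was 7.24 for the 38 subunits and 4.51 for the 8 assembly factors. The medians differ by 2.72, so subunit transcripts stood 6.60-fold above those of assembly factors. Of the subunits, 34 of 38 were above every assembly factor. The gap stood in each pool, with medians of 7.20 and 4.49 in the Tau pool, 7.27 and 4.57 in the WT pool, 7.19 and 4.50 in the AdipoRon pool, and 7.25 and 4.53 in the DMSO pool.

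The highest level per kb belonged to Ndufa4, at 9.15. Next came Ndufc2 at 8.35 and Ndufa13 at 8.25, both subunits of the membrane arm, of which Ndufa13 is also known as GRIM-19. Ndufa2, a small matrix-arm subunit, stood at 8.09. Ndufa3, of the membrane arm, stood at 7.96. This order depends on the length used. Per kb of whole transcript Ndufa4 was still highest at 8.47, but Ndufa13 stood at 6.10, below Ndufa2 at 7.12 and Ndufa3 at 6.93.

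The 7 core subunits encoded in the nucleus carry out electron transfer and are conserved from bacteria. On the scale per kb of coding sequence they did not head the order, with a median of 6.86. Ndufv2, an iron-sulfur subunit, stood at 7.24, and Ndufv1, which binds NADH and the flavin, at 6.96. Ndufs8 and Ndufs7, which carry the last iron-sulfur clusters before ubiquinone, stood at 6.86 and 6.76. Ndufs1, the largest subunit, was at 6.00, and Ndufs3 was at 5.56. As medians, the 16 subunits of the matrix arm stood at 6.81 and the 20 of the membrane arm at 7.33 per kb. These orders depend on the scale. Without division by length, the median log2 CPM was 6.81 for the core subunits and 6.22 for all 38 subunits. It was then 6.26 for the matrix arm and 6.03 for the membrane arm.

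Per kb of coding sequence, subunit transcripts at or below the level of the highest assembly factor were Ndufa12 (5.66), Ndufs3 (5.56), Ndufab1 (5.31) and Ndufb4 (4.53). Genes named as copies of Ndufab1 and Ndufb4 were also listed. Ndufab1 itself gave 49.8% and Ndufb4 12.6% of the CPM summed with their copies. The levels of these genes alone are therefore uncertain. Among the assembly factors, Ndufaf4 was highest on this scale at 5.81 per kb, followed by Ndufaf8 at 5.76 and Ndufaf3 at 5.26. Their order depends on the scale. Without division by length Ndufaf7 was highest, at a log2 CPM of 4.98. Per kb of whole transcript Ndufaf2 was highest at 3.94, with Ndufaf4 at 3.00. The subunits Ndufa12 (4.13) and Ndufs3 (5.12) then stood above every assembly factor. Ndufs4 (3.59), Ndufs6 (3.34) and Ndufb2 (3.18) then stood below Ndufaf2. Ndufaf3 and Ndufaf4 act together early in assembly, and Ndufaf8 partners Ndufaf5. Ndufaf7, a methyltransferase, stood at 4.59 per kb of coding sequence. Ndufaf2, which acts late in assembly, stood at 4.44. Ndufaf5, which hydroxylates NDUFS7, stood at 4.42. Ndufaf1, which works on the membrane arm, was at 4.28, and Ndufaf6 was the lowest of all 46 genes on this scale at 3.15.

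**Figure D1:**
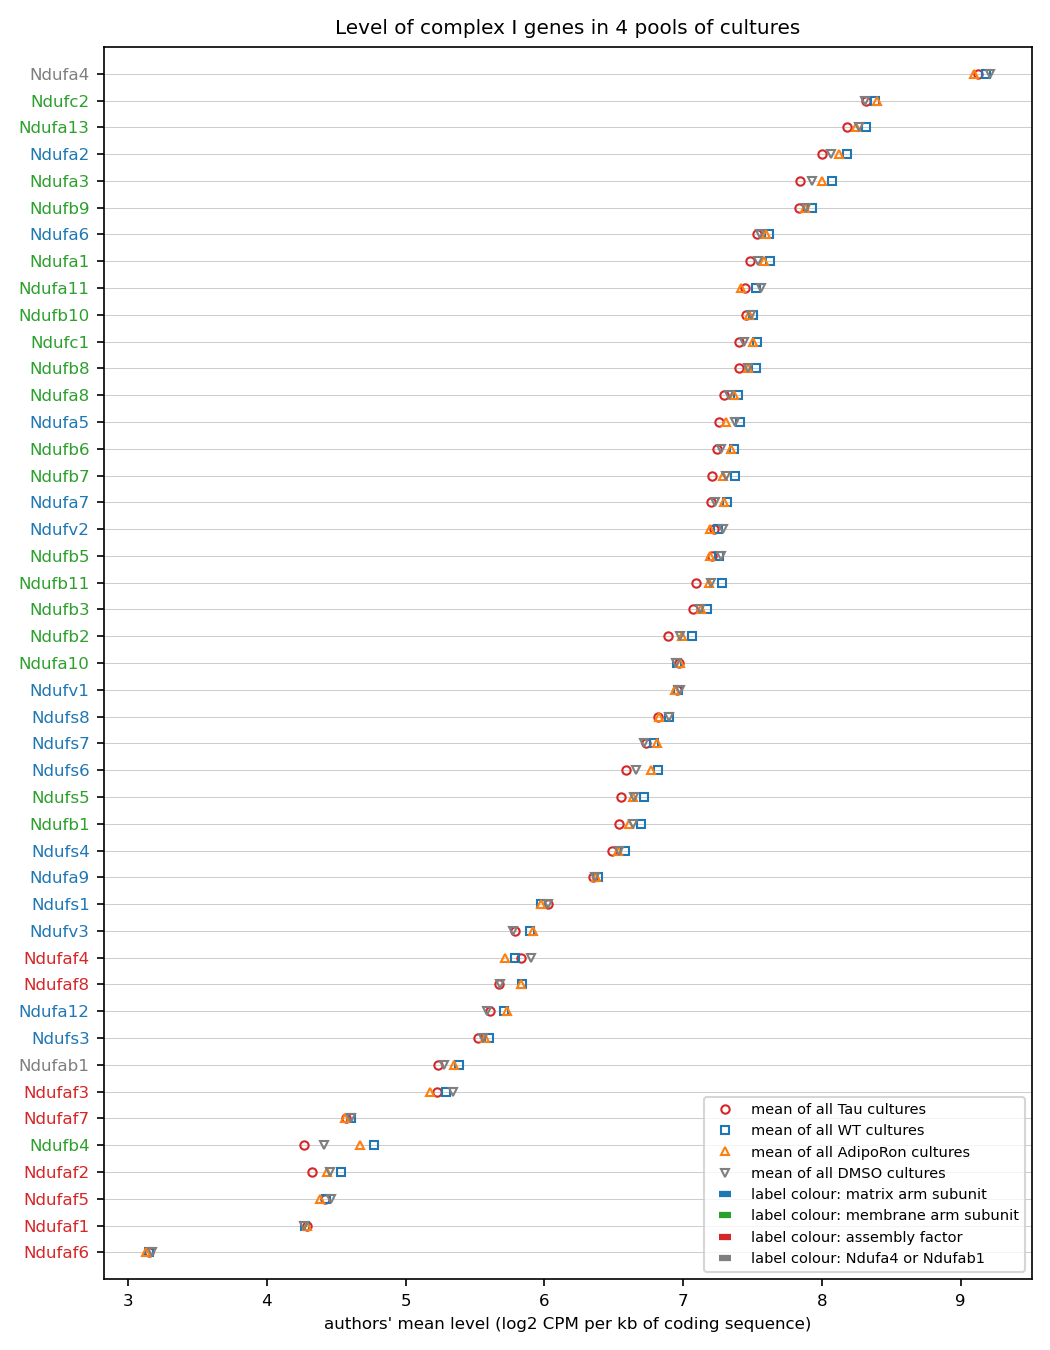
Level of 45 of the 46 genes, as log2 CPM per kb of coding sequence (horizontal axis), in the mean of all Tau, all WT, all AdipoRon and all DMSO cultures (symbols), ordered by level; the colour of a gene's name gives its class, and no error can be drawn because each symbol is 1 pooled value. The symbols of a gene lie close together (median range 0.12, largest 0.50 for Ndufb4) against a range of 4.62 between the highest and lowest subunit. The lowest subunit is Ndufb4, whose own level is uncertain because of its copies.

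Set against these differences between genes, the pools differed little. A gene's range over the 4 pools had a median of 0.12 on the log2 scale, from 0.03 to 0.50. For 27 of the 46 genes the WT pool was the highest of the 4, against 19.8% of all genes. The Tau pool was the lowest for 28 of 46, against 21.0% of all genes.

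Complex I transcripts were lower in the Tau pool than in the WT pool for 41 of the 46 genes, where 50% of all genes lie below 0 by the centring. The median difference was -0.10 on the log2 scale. At a threshold of 0.1 (6.70% lower or 7.18% higher), 20 of the 46 were lower and 0 were higher. Of all 19399 genes, 22.4% were lower by that much and 24.7% were higher. Of the 9424 genes with a log2 CPM over 4 in all tables, 56.4% lay below 0, and 17.6% were lower and 10.2% higher by that much. These are counts of pooled values past a fold, with no test behind them.

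Most of the genes past the threshold were subunits. Of all subunits, 36 of 38 were below 0 with a median difference of -0.10, and 18 of 38 passed the threshold. Of the assembly factors, 5 of 8 were below 0 with a median of -0.02, and 2 of 8 passed. The subunits of the membrane arm had a median of -0.12 with 12 of 20 past the threshold, and those of the matrix arm a median of -0.08 with 5 of 16. None of the 7 core subunits passed, and their median was -0.02.

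Ndufb4, an accessory subunit of the membrane arm, had a level of 2.90 log2 CPM in the Tau pool, 3.40 in the WT pool, 3.30 with AdipoRon and 3.04 with DMSO. It was thus lowest in Tau and highest in WT neurons, and its Tau minus WT difference of -0.50 was the largest of the 46. Ndufb4b and Ndufb4c, named as copies of Ndufb4, had differences of -0.09 and -0.05 and together held most of the signal, since Ndufb4 itself gave 12.6% of the summed CPM of the 3 genes. Summed over the 3 genes, the Tau minus WT difference was -0.13. The methods name RSEM for counting, whereas the deposited names mention Rsubread. How reads shared by such copies were divided is therefore unclear, and the value of Ndufb4 alone is uncertain.

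Ndufa3 stood at 5.86 log2 CPM in the Tau pool, 6.08 in the WT pool, 6.01 with AdipoRon and 5.94 with DMSO. Its Tau minus WT difference was -0.23. Ndufs6, a matrix-arm subunit that holds a zinc ion, stood at 5.07 in the Tau pool, 5.30 in the WT pool, 5.24 with AdipoRon and 5.13 with DMSO, a Tau minus WT difference of -0.23. For both genes the WT pool was the highest and the Tau pool the lowest of the 4. With its copy Ndufs6b added, the difference of Ndufs6 was -0.26.

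Ndufaf2 differed by -0.21 between the Tau pool (3.34 log2 CPM) and the WT pool (3.55), the largest difference among assembly factors. Ndufb11, an X-linked subunit of the membrane arm, differed by -0.18, from 5.95 to 6.13. Ndufab1 differed by -0.15, and its copy Ndufab1-ps by -0.18. Ndufs5 differed by -0.17 and its copy Ndufs5-ps by -0.22. Ndufs5 itself gave 38.6% of the CPM summed with this copy, so its own value is uncertain, as is that of Ndufab1. Ndufaf8 was the other assembly factor past the threshold, at -0.16. The remaining genes past it, all subunits, had differences down to -0.18.

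At the other end, 5 genes were higher in the Tau pool, none by 0.1. Ndufs1 had a level of 7.15 log2 CPM in the Tau pool, 7.10 in the WT pool, 7.10 with AdipoRon and 7.15 with DMSO, a Tau minus WT difference of 0.05. Ndufaf4 differed by 0.05, and Ndufa10, Ndufaf1 and Ndufaf6 by 0.01 each. Ndufv1, a core subunit with a high transcript level, differed by -0.01. Ndufv2 differed by -0.02, Ndufs7 by -0.06, Ndufs3 and Ndufs8 by -0.08 each, and Ndufa4 by -0.05. Among the assembly factors not yet given, Ndufaf3 differed by -0.07, Ndufaf7 by -0.03 and Ndufaf5 by -0.01.

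**Figure D2:**
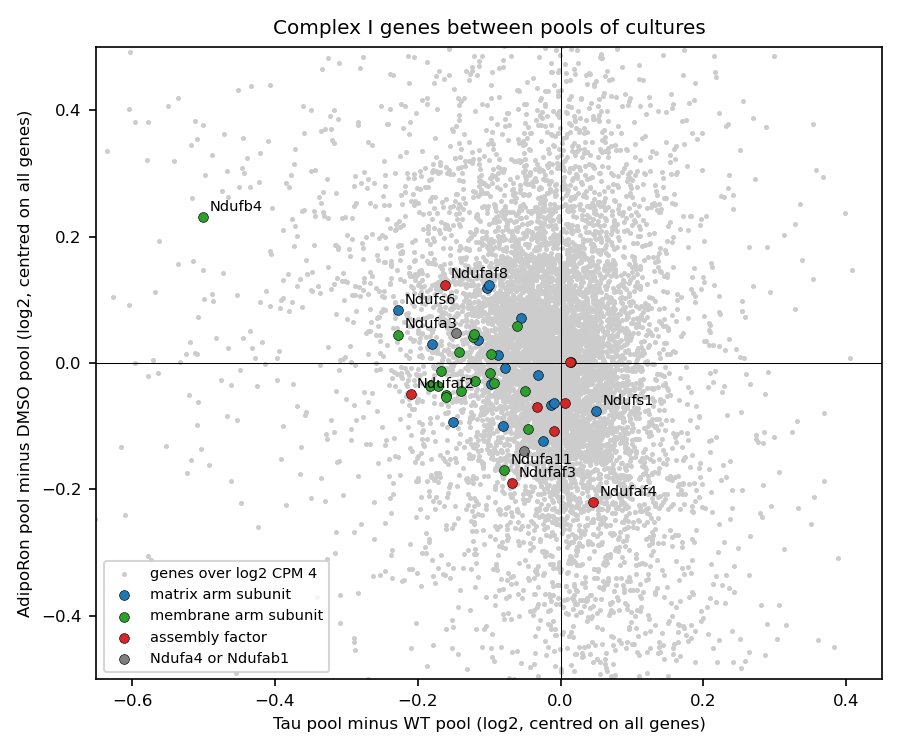
Difference between the Tau and WT pools (horizontal axis) and between the AdipoRon and DMSO pools (vertical axis) for the 46 genes, coloured by class, over the genes with a log2 CPM over 4 in all tables (grey; axes end at the limits shown, and some grey genes lie beyond them); both axes are log2 differences centred on all genes. Of the coloured points, 41 lie left of 0 on the horizontal axis, while 28 lie below and 18 above 0 on the vertical axis.

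The Tau minus WT difference went with the length of the coding sequence. Among the 46 genes, Pearson's r between the difference and the log2 coding length was 0.59 and Spearman's rho 0.73, across genes whose levels come from the same pools. Over 9097 protein-coding genes with a log2 CPM over 4 the same r was 0.07 and rho 0.10. All 6 members with a coding sequence of at most 300 bases passed the threshold, with a median of -0.16. Other genes of that length had a median of -0.06, and 37.2% of them were lower by at least 0.1. For coding sequences over 300 and up to 450 bases, the medians were -0.13 for 14 members and -0.05 for the other genes. Over 900 and up to 1500 bases they were -0.01 for 10 members and -0.01 for the others.

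When the difference was centred on other genes of the same class of length, a choice made after seeing the data, 41 of the 46 were still below 0 and the median was -0.06. The number past the threshold was then 11 in place of 20. The core subunits have coding sequences of 636 to 2181 bases, and the assembly factors of 222 to 1311 bases. The centred counts are for all 46 genes together and were not split by class. The part of length in the differences between subunits and assembly factors, between the arms, or for the core subunits was therefore not tested.

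**Figure D3:**
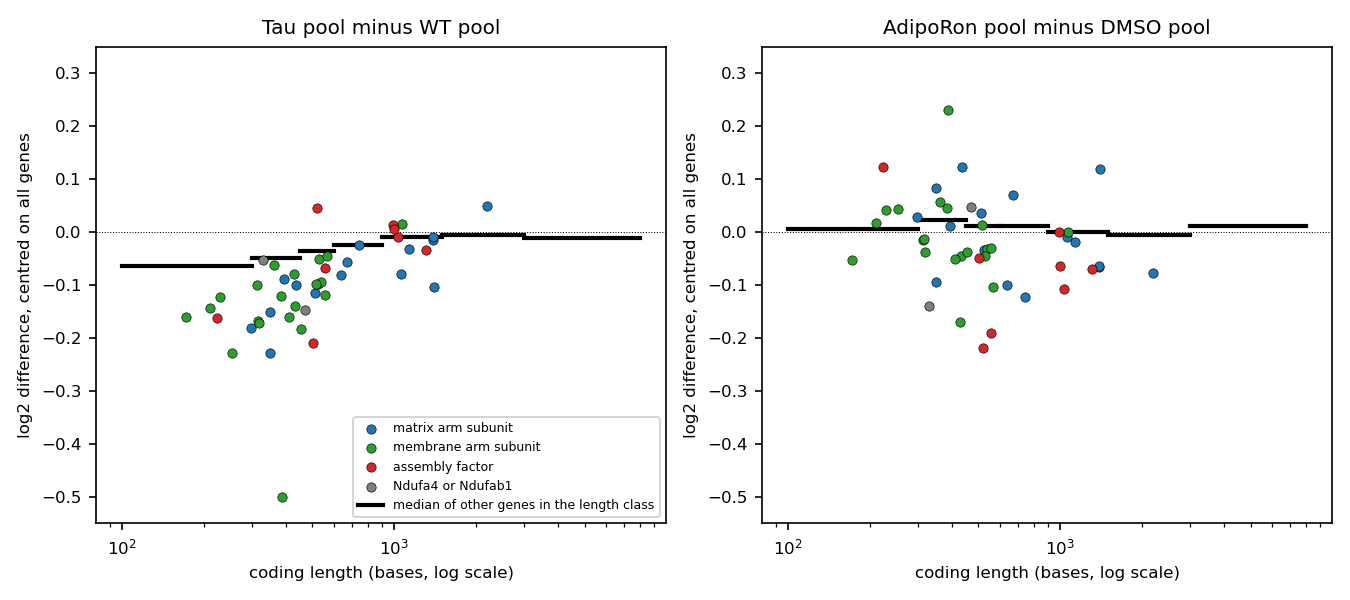
Coding length (bases, log scale) against the log2 difference between the Tau and WT pools (left) and between the AdipoRon and DMSO pools (right) for the 46 genes, with a black bar at the median of other protein-coding genes (log2 CPM over 4) in each class of length. On the left the members of the shortest class have a median of -0.16 and the bar stands at -0.06; on the right neither follows length closely (r of -0.22 among the members).

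Markers of other cells moved with the same pools. Microglia markers were lower in the Tau pool for 4 of 4 genes, by -0.97 when summed, and oligodendrocyte markers for 3 of 3, by -0.45. Astrocyte markers summed to a difference of -0.01, a sum led by Gfap (0.04), while 2 of the 4 were lower by at least 0.1, Aqp4 at -0.28 and Aldh1l1 at -0.12. Neuron markers summed to a difference of 0.14, with 7 of 8 above 0. In the Tau pool, microglia and oligodendrocyte markers were thus lower, astrocyte markers were split and neuron markers were mostly higher. The part of cell makeup in the complex I values was not tested.

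Medians of related machinery were also below 0. For 46 genes of complexes II to V the median difference between the Tau and WT pools was -0.08. Of them 36 were below 0, with 18 lower and 1 higher by 0.1. For 75 mitochondrial ribosomal proteins it was -0.06. Of these 59 were below 0, with 16 lower and 0 higher by 0.1. Complex I had 43.5% of its members past the threshold on the lower side, complexes II to V 39.1% and mitochondrial ribosomal proteins 21.3%, the last being close to the 22.4% of all genes. Of 12 complex I assembly factors that carry other symbols, 11 were in the tables, with a median of -0.02. Of these, 1 was lower by at least 0.1, namely Lyrm2 at -0.14, and 0 were higher. Acad9, which forms an early assembly complex with Ndufaf1 and Ecsit, differed by -0.02 and Ecsit by -0.01.

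Between the AdipoRon and DMSO pools, complex I transcripts lay on either side of 0. Both pools mix Tau and WT cultures, so opposite responses in the genotypes would cancel, and a difference near 0 does not show an absent response. Of the 46 genes, 28 were below 0 and 18 above, with a median difference of -0.03. At the threshold of 0.1, 8 were lower with AdipoRon, where 31.4% of all genes were, and 4 were higher, where 31% of all genes were. These are 17.4% and 8.70% of the members, and 34 of 46 lay within the threshold. Of the genes with a log2 CPM over 4 in all tables, 26.1% were lower and 27.4% higher. Without the centring, the median was -4.4e-03 and 4 were lower. Neuron markers were lower with AdipoRon for 7 of 8 genes, by -0.22 when summed. Astrocyte markers were split, with Gfap at 0.32 and Aldh1l1 at 0.40 against Aqp4 at -0.25 and Slc1a3 at -0.26, and a sum at 0.11. Microglia markers were lower for 3 of 4 genes, by -0.28 when summed, and oligodendrocyte markers summed to -0.01. The part of these markers in the complex I values was not tested.

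The assembly factors Ndufaf4 and Ndufaf3 were the lowest of the 46 in the AdipoRon pool relative to DMSO. Ndufaf4 stood at 4.77 log2 CPM with AdipoRon, 4.96 with DMSO, 4.89 in the Tau pool and 4.84 in the WT pool, an AdipoRon minus DMSO difference of -0.22. Ndufaf3 stood at 4.33 with AdipoRon, 4.49 with DMSO, 4.37 in the Tau pool and 4.44 in the WT pool, a difference of -0.19. In both genes the AdipoRon pool was the lowest and the DMSO pool the highest of the 4.

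Ndufa11, which sits where complexes I and III meet, differed by -0.17, Ndufa4 by -0.14 and Ndufv2 by -0.12. Ndufaf5 differed by -0.11. Ndufs8 and Ndufb5 were also past the threshold, at -0.10 each. On the higher side, Ndufb4 differed by 0.23 (0.01 when summed with Ndufb4b and Ndufb4c). Ndufaf8, Ndufa12 and Ndufv3 differed by 0.12 each, and Ndufs6, the next, by 0.08.

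As groups, the 8 assembly factors had a median AdipoRon minus DMSO difference of -0.07 with 3 lower and 1 higher by 0.1, and the 38 subunits a median of -0.02 with 5 lower and 3 higher. The core subunits had a median of -0.07, and 6 of 7 were below 0, Ndufs7 being the exception at 0.07. Other core subunits differed by -0.08 for Ndufs1, -0.06 for Ndufv1 and -0.01 for Ndufs3. Among assembly factors, Ndufaf7 differed by -0.07, Ndufaf6 by -0.06, Ndufaf2 by -0.05 and Ndufaf1 by 0.00. The 11 assembly factors outside the symbol rule lay mostly on the other side of 0, with 9 above it, a median of 0.05 and Tmem186 highest at 0.25. For complexes II to V the median was -0.02, with 9 lower and 8 higher.

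Promoters are shown for Ndufb4 and Ndufa3, whose own values had the largest differences between the Tau and WT pools, with the doubt about Ndufb4 and its copies given above. Each is the 250 bases before the start site in RefSeq on GRCm38.p6, 5′ to 3′ on the gene's strand, with capitals for any searched motif. The window of Ndufb4 is chr16:37654369-37654618 (minus strand) and that of Ndufa3 is chr7:3617123-3617372 (plus strand).
Ndufb4: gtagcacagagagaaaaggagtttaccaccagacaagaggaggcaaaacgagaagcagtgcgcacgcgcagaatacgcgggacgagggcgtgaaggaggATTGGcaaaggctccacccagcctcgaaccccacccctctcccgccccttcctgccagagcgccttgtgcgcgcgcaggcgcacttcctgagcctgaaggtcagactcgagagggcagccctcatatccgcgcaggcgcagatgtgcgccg
Ndufa3: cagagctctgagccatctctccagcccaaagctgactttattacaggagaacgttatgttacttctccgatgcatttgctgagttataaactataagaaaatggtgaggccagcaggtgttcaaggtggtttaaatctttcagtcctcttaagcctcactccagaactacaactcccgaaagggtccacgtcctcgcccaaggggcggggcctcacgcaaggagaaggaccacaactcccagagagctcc

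The motifs, searched on both strands, were CCGGAAG of ETS factors such as GABP, GCATGCGC of NRF1, AAGATGGC of YY1, the CCAAT box (CCAAT) and CAAGGTCA of estrogen-related receptors. GABP, NRF1, YY1 and the estrogen-related receptors are known regulators of respiratory genes. Of these 5 strings of letters, the Ndufb4 window holds the CCAAT box, on the opposite strand, and that of Ndufa3 holds none. Only these exact letters were searched, so a window without them may still hold a variant of a motif. Of the 46 genes, 41 matched a RefSeq promoter of 300 bases, which runs to 50 bases after the start. The YY1 letters were in 8 of the 41, against 2.88% of 27025 promoters of all genes, and the NRF1 letters in 5, against 2.8%. The ETS letters were in 6, against 9.12%, the CCAAT box in 14, against 37.9%, and the estrogen-related receptor letters in 1, against 1.53%.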

How the data were processed

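The 21 samples were grouped by their titles. Per the labels and methods, STAR placed the trimmed reads on mm10, RSEM counted them and edgeR fitted the model for each pair of groups. Elsewhere the paper gives GRCm39 as the build, and the table names mention Rsubread. The authors deposited 4 tables whose mean expression is a log2 value (log2 CPM over both groups of a table), of 19811 to 21378 genes. How libraries were normalized and genes filtered is not given in the sources used here. The tables also hold the authors' own fold changes, likelihood ratios, p-values and false discovery rates, which were not used. The deposited descriptions of WT samples do not name the table of AdipoRon against DMSO in WT neurons, so pools were taken from the tables' names. With these pools, the DMSO and AdipoRon levels should nearly add up to the Tau and WT levels. For the 46 genes they did within 0.0431 on the log2 scale. This sum stays the same if Tau and WT, or AdipoRon and DMSO, are exchanged. It therefore does not check which pool of a pair is which.

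Differences are Tau minus WT and AdipoRon minus DMSO pools, minus the median over 19399 genes (Python 3.11.15, pandas 2.3.3). Pools differ slightly in makeup, since WT with AdipoRon has 6 cultures. Lengths are those of canonical transcripts in GENCODE M39, matched by symbol for 46 of 46 members. Members, lists and the threshold of 0.1 were chosen with earlier results of these data known. Genes named are the core subunits, the assembly factors, Ndufa4, Ndufab1, the 5 highest and lowest levels, and the 5 largest differences in each direction. Some genes the rule names are not reported here. Other genes, the arms and the copies by symbol were chosen after values were seen. Alternatives were the threshold, the centring, a minimum log2 CPM of 4, the length scale and leaving out Ndufa4 and Ndufab1 or, added later, genes with copies.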

Additional observations from a re-analysis of the deposited data

How the results depend on the processing

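The gap between median levels of subunits and assembly factors, 2.72 (log2 per kb of coding sequence), was 1.88 without division by length, 2.66 with a minimum log2 CPM of 4 and 2.64 per kb of whole transcript. Between the Tau and WT pools, the 20 members lower by 0.1 became 34 at 0.05, 4 at 0.2 and 11 when centred within classes of coding length, and 0 were higher under every alternative tried. The median of -0.10 was -0.082 with that minimum and -0.059 within classes of length. Between the AdipoRon and DMSO pools, the 8 members lower became 4 without centring, 16 at 0.05 and 1 at 0.2. The 4 members higher became 7 at 0.05, 1 at 0.2 and 2 with the minimum log2 CPM of 4. The median of -0.03 was -4.4e-03 without centring and -0.043 within classes of length. The cause of these shifts was not tested beyond what the settings themselves alter. Leaving out Ndufa4 and Ndufab1, or the 6 members with a copy in the tables, moved no count by over 1.5 times. No culture could be left out, since only pooled means were used. No paired analysis was possible because the values come from pooled means, although AdipoRon and DMSO samples share animals, and no test was made. Depths per culture were not used here.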
